A study of Mus musculus domesticus with 18 samples.

Results

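Low altitude location C is 1 of 3 trapping locations in Lima, Peru, at 100 m, from which wild male house mice (Mus musculus domesticus) were taken for liver expression profiling. Its members were chosen by their titles, and they are 3 of the 18 arrays of the series, 1 array per mouse. They were compared with the 6 arrays of low altitude locations A and B, 3 mice each. The other 9 arrays come from 3 locations in La Paz, Bolivia, at 3600 m, and served here for the spread between mice of 1 location and as a background. All mice are males, the labels record neither treatment nor age, and they carry the strain name C57BL/6J although title and source call the animals wild. The labels give no distance, habitat or relatedness for A, B and C, so a difference between locations measures place, population and sampling together, and these cannot be told apart. Array batches could not be looked for, so any batch that followed location would be part of such a difference too.

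The liver consists mainly of hepatocytes, which make plasma proteins and process nutrients, bile acids and foreign compounds. Kupffer cells, the resident macrophages, line its blood channels together with fenestrated endothelial cells, and clear particles and microbial products arriving from the gut. Their abundance, and the level of interferon-driven antigen presentation genes and acute phase proteins, are known to follow infection and inflammation. Wild mice also differ in DNA sequence, and an array probe binds a transcript less well where its sequence differs from the reference.

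All values are log2 signals, which can be compared between mice for 1 probe set but not between probe sets or genes. On the 9 low altitude arrays the array medians lay between 5.65 and 5.72. RNA integrity, read as Actb 3 prime over 5 prime signal, was 1.26 ± 0.25 in C (log2, SD, n = 3) and 1.19 ± 0.15 in A and B (SD, n = 6, exact two-sided permutation p = 0.667). Array pairs within C correlated at 0.985 to 0.988 over all single-gene probe sets, and C with A or B at 0.978 to 0.989, so C did not stand apart in the whole profile and no array was a copy of another. Eif2s3y, on the Y chromosome, spanned 7.57 to 7.99 in these mice, all labelled male.

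Of the mice C was compared with, 2 stood apart. The 16 measured genes known to be higher in female liver averaged 9.27 in A mouse 1 and 9.01 in B mouse 2, against 5.98 to 6.79 in the other 7 low altitude mice. For 11 of these 16 genes both mice lay above the other 7, and for 12 of 15 genes known to be higher in male liver both lay below. Sult3a1, a female-biased sulfotransferase, read 12.95 in A mouse 1 and 11.79 in B mouse 2, and 3.24 to 5.31 in the others. The 3 mice of C did not have this profile. Main results are therefore also given without A mouse 1 and B mouse 2, an alternative chosen after seeing the data.

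**Figure D1:**
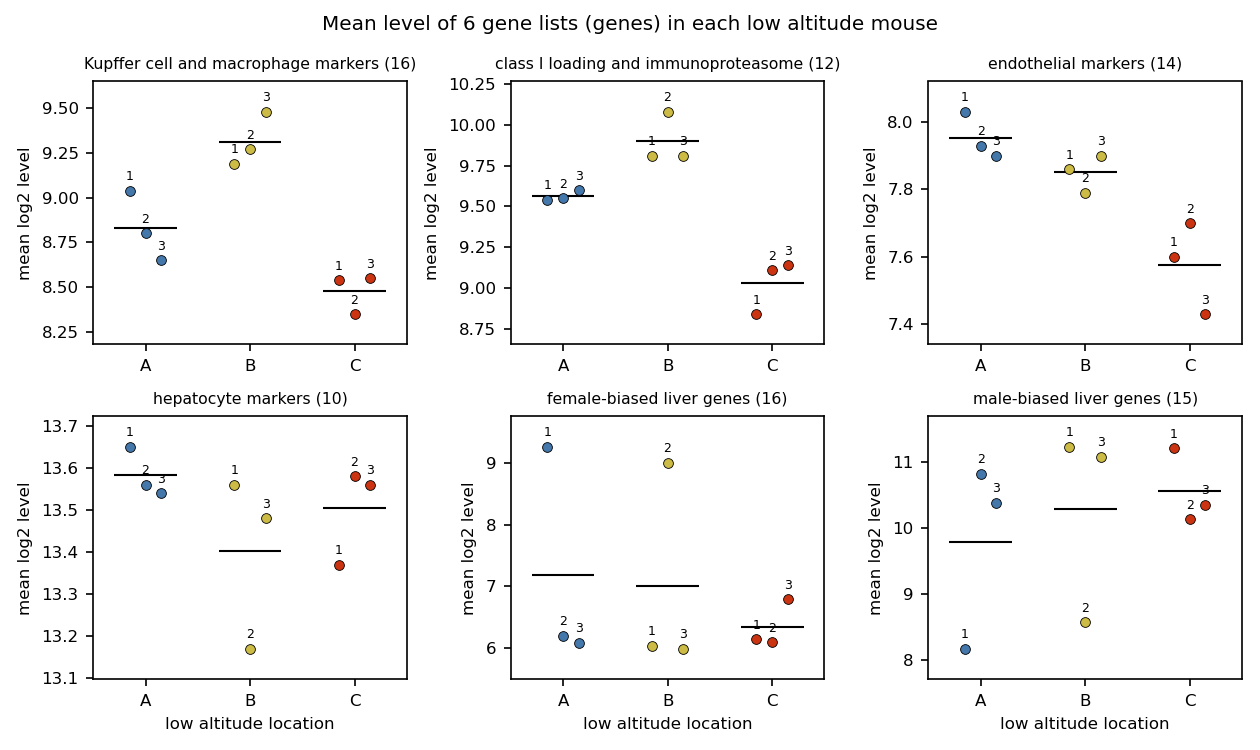
Mean log2 level of 6 gene lists in each low altitude mouse, by location; points are mice, numbered, and lines are location means. The 3 mice of C lie below the 6 mice of A and B for macrophage markers (8.35 to 8.55 against 8.65 to 9.48), class I loading genes and endothelial markers, but not for hepatocyte markers, and A mouse 1 and B mouse 2 stand apart for sex-biased genes.

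The first question was which transcripts set C apart from A and B together. No probe set passed: limma called 0 of 34945 single-gene probe sets (0.0%) at an adjusted p under 0.05, and the lowest adjusted p was 0.11. At an unadjusted p under 0.05 there were 2011 probe sets, or 5.75% of those tested. The count moved with single mice: it was 6 without B mouse 2, 5 without C mouse 2, 3 without B mouse 1, 2 without C mouse 1, and 1 without A mouse 1, A mouse 2 or A mouse 3. Without A mouse 1 and B mouse 2 together, 11 probe sets of 10 genes passed. Among these were Abhd18 at 1.43, the glutathione transferase Gsta4 at 1.63, and the lectin-like receptor gene Clec2h at -1.02 (adjusted p = 0.0372, 0.0391 and 0.0391).

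The same contrast for the other low altitude locations gave 24 probe sets for A against B and C (0.0687%) and 5 for B against A and C (0.0143%). These comparisons share arrays with that of C. The number of arrays limits the precision: for C against the mean of A and B, standard errors had a median of 0.127 on the log2 scale. Nothing in the labels says more of how mice were sampled within a location, so the tests measure the spread between these mice only.

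Since no probe set passed, the genes with the smallest p are given in each direction as values, without a call. Of the 15 named genes with lower levels in C, 8 had all 3 mice of C below all 6 of A and B, and adjusted p ran from 0.11 to 0.353. Of the 15 with higher levels, 10 had all 3 above, with adjusted p from 0.11 to 0.311. Over all 18193 genes, taken as 1 probe set each, C lay below all of A and B for 290 (1.59%) and above all for 202 (1.11%). The named genes were chosen by the same values, so their separation is a description. Without A mouse 1 and B mouse 2 the difference of Lipa was -3.39, that of Lipo3 -1.12, that of Lyz2 -1.07, that of Cyp2j6 0.71 and that of Akr1c19 2.14.

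**Figure D2:**
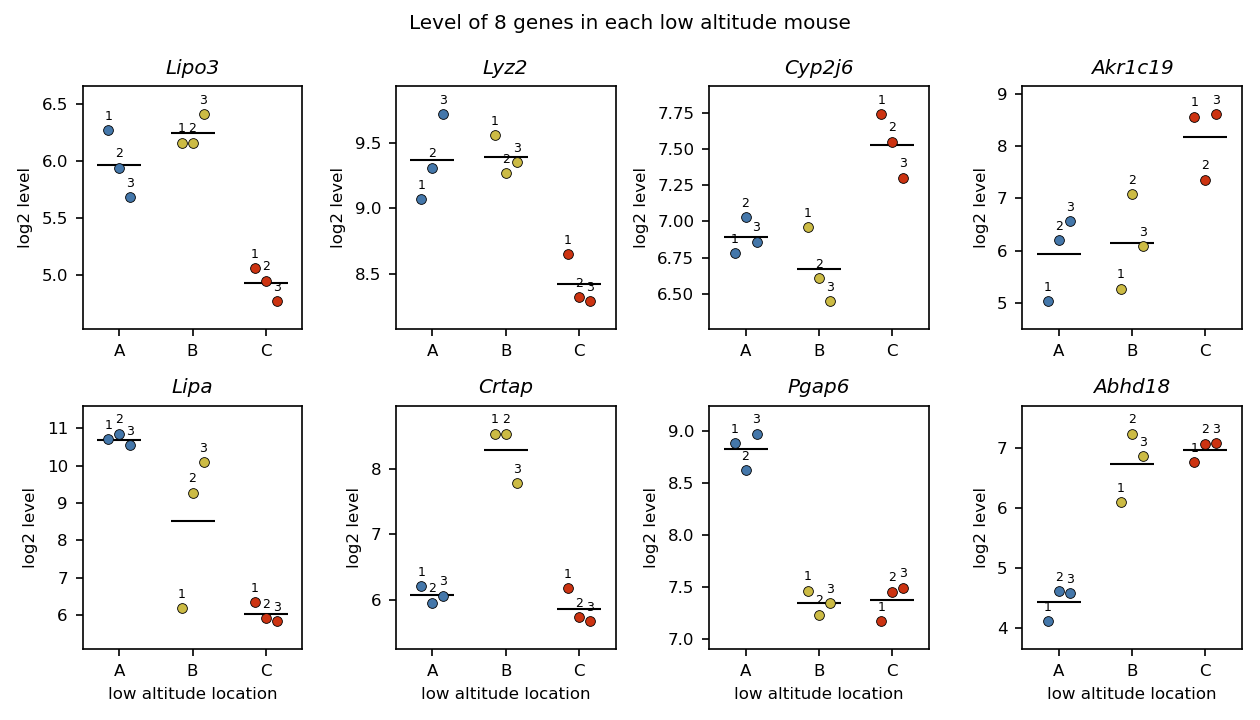
Log2 level of the named probe set of 8 genes in each low altitude mouse, by location. Points are numbered mice and lines are location means. In the upper row C lies apart from both A and B, and in the lower row C lies with B mouse 1 (Lipa), with A (Crtap) or with B (Pgap6, Abhd18).

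The genes whose named probe set put C apart from both other locations came from several functions. Lipo3, a lipase family gene, read 5.06, 4.95 and 4.77 in the mice of C, 6.27, 5.94 and 5.68 in A, and 6.16, 6.16 and 6.41 in B. The groups did not overlap, and the log2 difference was -1.18 ± 0.20 (SE, adjusted p = 0.134). Its level is dim, with A and B at 6.11 on average beside a median of 5.69 over all single-gene probe sets, and the 9 high altitude mice spanned 3.70 to 6.69. Msrb3, a methionine sulfoxide reductase, averaged 6.02 ± 0.10 in C (SD, n = 3) against 6.79 ± 0.27 in A and 6.64 ± 0.30 in B (SD, n = 3 each). Mrps14, a protein of the small mitochondrial ribosomal subunit, averaged 7.79 ± 0.09 in C against 8.24 ± 0.12 in A and 8.44 ± 0.18 in B (SD, n = 3 each). Slc16a9, a monocarboxylate transporter family member, lay at 5.30 to 5.44 in C and at 5.59 to 6.26 in A and B. Dntt, the template-independent polymerase of developing lymphocytes, lay at 5.67 to 5.93 in C and at 6.08 to 7.05 in A and B. A brighter Mrps14 probe set averaged 10.27 in C, 10.37 in A and 10.07 in B, a log2 difference of 0.05, and a dim one gave 0.09. Other probe sets gave -0.16 and -0.4 for Slc16a9, -0.25 and -0.5 for Dntt, and -0.01 for Msrb3, the last at a dim level.

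Lysozyme transcripts were among the lower ones. Lyz2, the lysozyme of macrophages and other myeloid cells, read 8.65, 8.32 and 8.29 in C, 9.07, 9.31 and 9.72 in A, and 9.56, 9.27 and 9.35 in B. All 3 mice of C lay below all 6 others, and the log2 difference was -0.96 ± 0.19 (SE, adjusted p = 0.237). The probe set assigned to Lyz1, the close paralog of Lyz2, gave -0.99 ± 0.20 (SE, adjusted p = 0.237). Another Lyz1 probe set gave -1.07 and a dim one -0.18. The 2 lysozyme genes are close in sequence, so which of them the Lyz1 probe sets report is uncertain.

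Among the higher genes, Cyp2j6, a cytochrome P450 that oxidises arachidonic acid, read 7.74, 7.55 and 7.30 in C. It read 6.78, 7.03 and 6.86 in A and 6.96, 6.61 and 6.45 in B. The groups did not overlap, and the log2 difference was 0.75 ± 0.13 (SE, adjusted p = 0.124). The 9 high altitude mice spanned 7.24 to 7.63 on this probe set, at the level of C. Without B mouse 1 the log2 difference was 0.82 and passed (adjusted p = 0.0415). Another Cyp2j6 probe set did not set C apart from A. It averaged 7.62 in C, 7.62 in A and 7.09 in B, a log2 difference of 0.26 against A and B. Akr1c19, an aldo-keto reductase, read 8.56, 7.36 and 8.61 in C, 5.04, 6.20 and 6.57 in A, and 5.28, 7.08 and 6.09 in B. All 3 mice of C lay above the other 6, though C mouse 2 lay close to B mouse 2, and the log2 difference was 2.14 ± 0.47 (SE, adjusted p = 0.311). The high altitude mice spanned 6.34 to 8.90 for Akr1c19, with a median of 7.94, so C lay within their range.

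A pair of higher genes encode lysosomal proteins. Ids, the iduronate sulfatase that degrades glycosaminoglycans, lay at 8.25 to 8.69 in C and 7.59 to 8.09 in A and B (log2 difference 0.60 ± 0.13, SE, adjusted p = 0.239). Gm2a, the activator protein for ganglioside breakdown, lay at 10.54 to 11.61 in C and 9.61 to 10.48 in A and B (0.98 ± 0.22, SE, adjusted p = 0.311). For neither gene did another probe set show a difference of this size: those of Ids gave 0.08 to 0.26 and those of Gm2a gave -0.01 and 0.05.

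The other higher genes without overlap between the groups were Tmem198b, Creb3l2, Ccdc117, the long noncoding RNA Tug1, Snapin and Tpd52, with log2 differences from 0.47 for Tpd52 to 0.88 for Tug1. The high altitude mice lay wholly below C for Tmem198b, Tug1, Snapin and Tpd52, and overlapped C for Creb3l2 and Ccdc117. Creb3l2, a membrane-bound transcription factor of the secretory pathway, had the narrowest levels in C, at 6.96, 7.05 and 7.02, against 6.16 to 6.30 in A and 6.55 to 6.73 in B. Tpd52 is the one of these with 2 further probe sets at a larger difference, 0.65 each, and the second probe set of Ccdc117 gave 0.58. A dimmer Tpd52 probe set gave 0.2, and the second of Tmem198b 0.41. The other probe sets of Tug1, at 0.09 and -0.02, Snapin, at -0.05, and Creb3l2, at 0.13, did not share the difference. The transcript 0610005C13Rik read 10.30 and 10.59 in C mice 1 and 3 and 7.93 in C mouse 2, within the 7.47 to 8.10 of A and B. Its log2 difference of 1.87 ± 0.39 (SE, adjusted p = 0.237) became 2.71 without C mouse 2 (adjusted p = 1.03e-05).

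The remaining named genes overlapped. Pigt, a subunit of the complex that attaches lipid anchors to proteins, read 5.87, 5.88 and 7.03 in C and 7.02 to 7.78 in A and B, with C mouse 3 among the others (-1.09 ± 0.23, SE, adjusted p = 0.251). Its other probe sets gave 0.07 and -0.22. Trio read 7.19, 7.79 and 7.89 in C, 5.83 to 6.30 in A and 6.69 to 7.26 in B (1.07 ± 0.23, SE, adjusted p = 0.264). Other Trio probe sets gave -0.06 to 0.34. Gdi2, which recycles Rab GTPases, read 11.54, 11.45 and 11.64 in C, 10.06 to 10.37 in A and 10.16 to 11.57 in B (0.94 ± 0.20, SE, adjusted p = 0.264), while its 5 other probe sets gave -0.09 to 0.06. The high altitude mice spanned 11.48 to 11.74 on the named Gdi2 probe set, at the level of C.

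Setting A and B apart showed that many named genes separated C from only 1 of the other locations. Against A alone limma called 17 probe sets of 16 genes (0.0486%), 5 higher and 12 lower in C. Against B alone it called 2 (0.00572%), both lower in C. A against B gave 21 (0.0601%). The comparisons share arrays, so their counts are not independent. Leaving out a mouse of C or A changed the count against A to between 7 and 23. It was 7 without A mouse 3, 9 without A mouse 2 and 10 without C mouse 3, and Lipa, both Pgap6 probe sets, 2610005L07Rik and Abhd18 passed in all 6 of these fits. Against B the count lay between 0 and 9. Without C mouse 3 both probe sets lost their call, and without B mouse 1, B mouse 2, C mouse 1 or C mouse 2 the counts were 4, 9, 5 and 6.

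Lipa, the lysosomal acid lipase that splits cholesteryl esters and triglycerides, had the largest difference of the 30 named genes. Its probe set read 6.35, 5.91 and 5.84 in C and 10.71, 10.85 and 10.54 in A, while B held 6.19, 9.27 and 10.09. C and A did not overlap, and B mouse 1 lay among the mice of C. The log2 difference was -3.58 ± 0.53 against A and B (SE, adjusted p = 0.11), and -4.67 ± 0.61 against A alone, where it passed (adjusted p = 0.00611). Without B mouse 1 it was -4.16 against A and B and passed (adjusted p = 3.01e-08). In the 9 high altitude mice the same probe set spanned 5.75 to 10.92 with a median of 10.61.

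The other probe sets of Lipa did not share this difference. One averaged 9.46 in C, 9.55 in A and 9.30 in B, a log2 difference of 0.03, and the other 11.30, 11.24 and 11.19, a log2 difference of 0.09. Of the 30 named genes, 25 had another single-gene probe set, 54 in all. Of these 54, 20 went the other way, 24 went the same way at under 0.5 times the size of the named one, and 10 at 0.5 times or more. Those 10 belonged to 8 genes: Tmem198b, Ccdc117, Tpd52, Pgap6, Slc16a9, Lyz1, H2-K1 and Dntt. Whether sequence differences under the probes have a part in these differences was not tested.

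**Figure D3:**
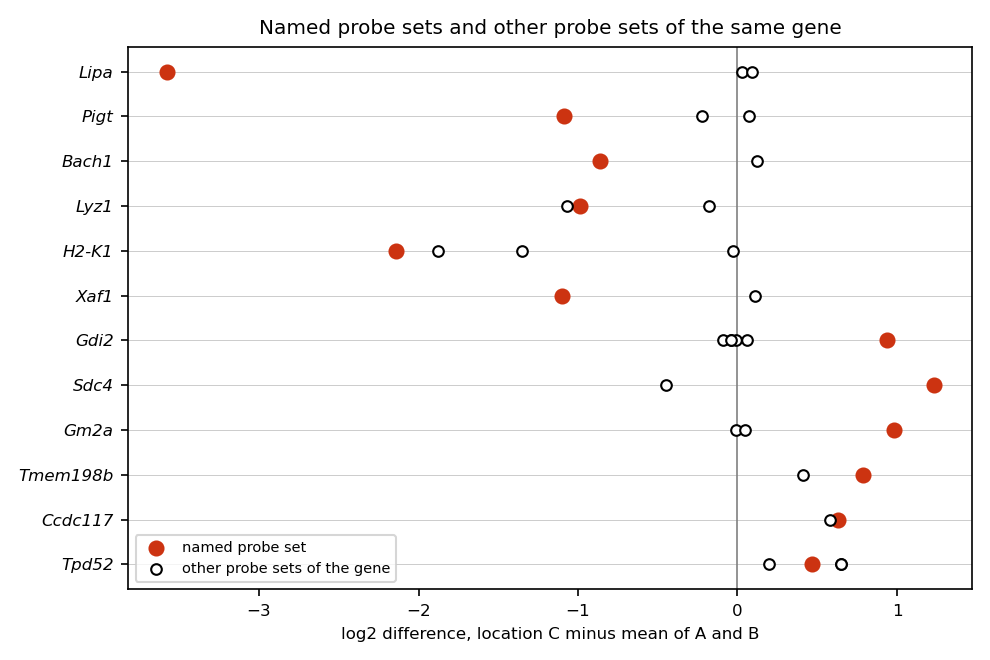
Log2 difference of C minus the mean of A and B for 12 named genes; filled points are the named probe sets and open points the other single-gene probe sets of the same gene. The named Lipa probe set lies at -3.58 and its other probe sets at 0.03 and 0.09, whereas probe sets of Ccdc117, Tpd52 and Lyz1 include ones that lie together.

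Several further genes followed A or B. Crtap, part of a collagen-modifying complex, read 6.17, 5.73 and 5.67 in C, 6.20, 5.95 and 6.06 in A, and 8.54, 8.54 and 7.78 in B. C overlapped A and lay apart from B, with a log2 difference of -2.43 ± 0.29 from B (SE, adjusted p = 0.00432) and -0.21 ± 0.29 from A (SE, adjusted p = 0.932). Xaf1, an interferon-inducible regulator of apoptosis, likewise lay at 4.64 to 6.03 in C and 4.60 to 5.26 in A but 7.22 to 7.97 in B (-2.50 ± 0.29 against B, SE, adjusted p = 0.00432). Its difference from A was 0.30, and a second, brighter Xaf1 probe set gave 0.11 against A and B.

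Pgap6, an enzyme that acts on lipid-anchored proteins, showed the other arrangement. It read 7.17, 7.45 and 7.49 in C, 7.46, 7.23 and 7.34 in B, and 8.88, 8.62 and 8.97 in A. C lay with B, and the log2 difference from A was -1.46 ± 0.16 (SE, adjusted p = 0.00141) against 0.03 from B. A second Pgap6 probe set also passed against A, at -1.72 (adjusted p = 0.00299), and 2 dim ones gave 0.11 and 0.12 against A and B. Abhd18 read 6.76, 7.07 and 7.08 in C and 6.09, 7.23 and 6.86 in B, against 4.12, 4.62 and 4.58 in A. Its log2 difference from A was 2.53 ± 0.25 (SE, adjusted p = 0.000806) and from B 0.24, and its other probe sets gave 0.17 and 0.28 against A and B.

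Bach1, a haem-sensing repressor of antioxidant genes, was lower in C than in A by a log2 difference of -1.51 (adjusted p = 0.00807), whereas its other, brighter probe set averaged 9.01 in C and 8.77 in A. Sdc4, a heparan sulfate proteoglycan of the cell surface, was higher in C than in A by 1.66 (adjusted p = 0.0408), and its other, dimmer probe set gave -0.45 against A and B. Creb3l2, at 0.78, and Lhfpl2, at -1.17, also passed against A (adjusted p = 0.0408 and 0.0308), as did Ube2v2 and Spg7 in the higher direction and Ephb6, Mtmr2, 2610005L07Rik, E330020D12Rik, Prim1, Arhgef10 and Ankrd33b in the lower. Of these calls, Creb3l2 and Prim1 passed in 0 of the 6 fits that left out 1 mouse of C or A. Sdc4, Mtmr2, E330020D12Rik and Ankrd33b passed in 1 of 6, Lhfpl2, Spg7 and Arhgef10 in 2, Ephb6 in 3, Ube2v2 in 4 and Bach1 in 5. Other Ube2v2 probe sets averaged 8.32, 5.86 and 4.08 in C and 8.64, 5.31 and 4.2 in A. Those of Lhfpl2 averaged 5.7, 5.91 and 8.82 in C and 6.0, 5.88 and 8.74 in A. That of Spg7 averaged 4.96 in C and 4.93 in A, and that of Prim1 6.3 and 7.09. Those of Arhgef10 averaged 4.4 and 5.53 in C and 4.31 and 6.07 in A. Against A and B together the called Ankrd33b probe set gave -1.6 and the others -1.3 and -0.37, and the called Mtmr2 probe set gave -0.47 and another -0.5. In the comparison with A alone the called Mtmr2 probe set gave -1.56, and the other averaged 5.16 in C and 6.54 in A. For 2610005L07Rik, the called probe set gave -1.49 against A and -0.62 against A and B, where 7 other probe sets gave -0.41 to 0.41. Those others went both ways from A: one averaged 5.39 in C and 6.19 in A, another 10.15 and 9.72.

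To describe functions rather than single probes, 44 gene lists were read with 1 probe set per gene. Lists and members were chosen with earlier results of these data known, so their shares beside all genes are descriptions. In bulk liver, fewer cells of a type and less RNA per cell cannot be told apart. Over all 18193 genes the median log2 difference was 0.00, 50.2% of genes were negative, and 559 genes (3.07%) were lower and 471 (2.59%) higher at an unadjusted p under 0.05. No list had a member that passed the adjusted threshold against A and B together. In 35 lists the median lay within 0.2 of 0, and 17 lists had 0 members at an unadjusted p under 0.05. The mean level of the 3 mice of C lay wholly below the 6 mice of A and B for 4 lists, those of macrophages, neutrophils, endothelium and class I loading, and wholly above for 0.

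**Figure D4:**
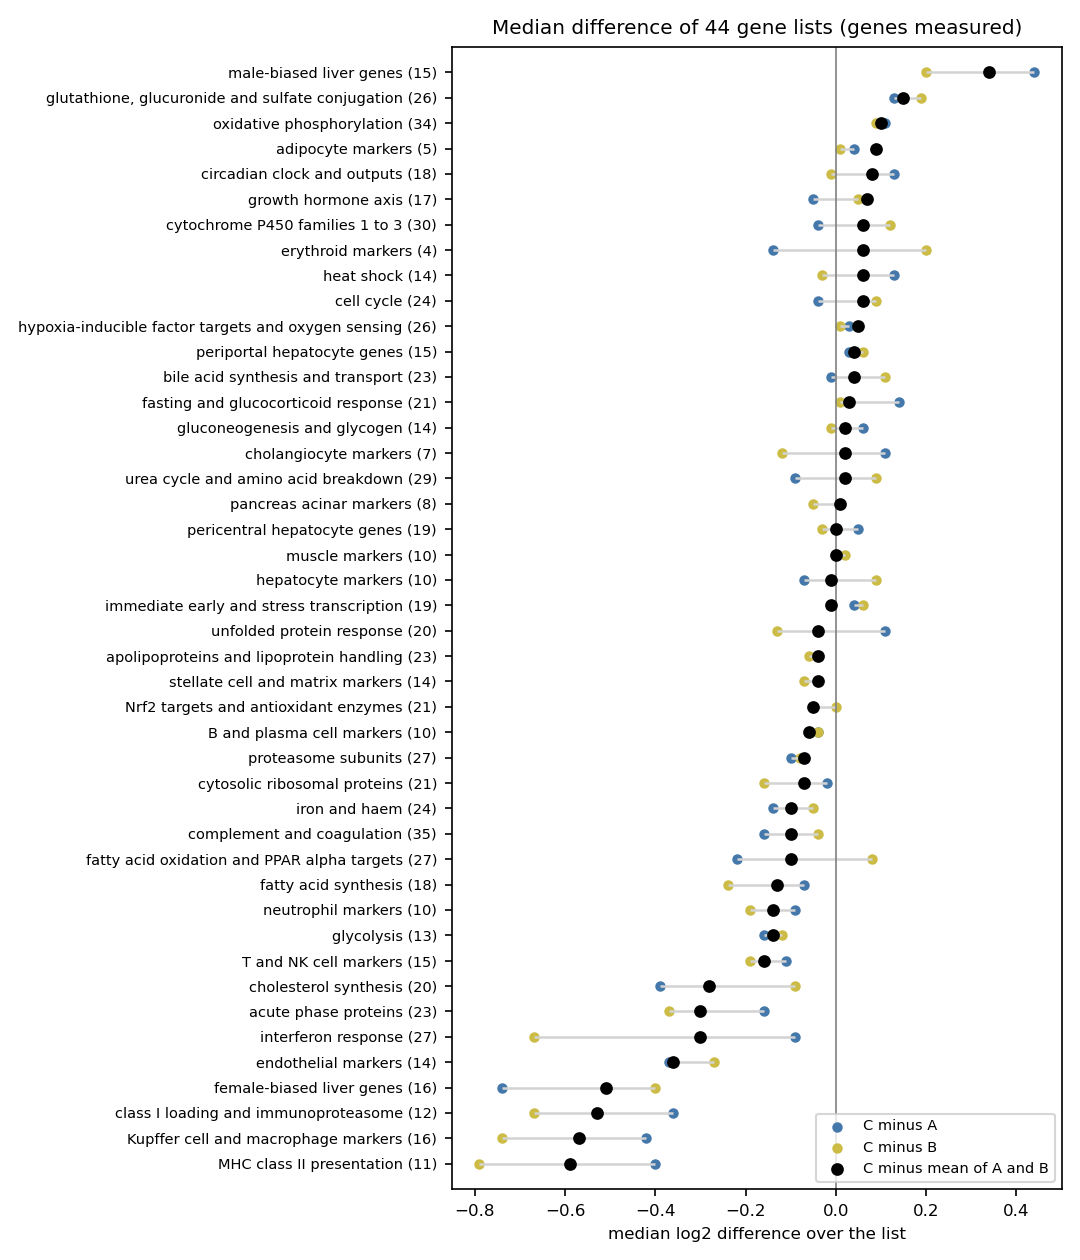
Median log2 difference over each of 44 gene lists, with the number of measured genes in brackets; black points are C minus the mean of A and B, and coloured points C minus A and C minus B. Antigen presentation and macrophage lists lie lowest, at -0.53 to -0.59, and 35 of 44 medians lie within 0.2 of 0.

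Kupffer cell and macrophage markers were the list with the largest share of members at lower levels in C. All 16 measured genes had a negative difference, with a median of -0.57 and a range of -0.97 to -0.29. At an unadjusted p under 0.05, 11 of 16 were lower (68.8%, against 3.07% of all genes), and 6 lay below all of A and B (37.5%, against 1.59%). All 16 lay above the median level of all probe sets, whereas the shares over all genes include dim genes. The mean level of the 16 markers was 8.54, 8.35 and 8.55 in the mice of C, 9.04, 8.80 and 8.65 in A, and 9.19, 9.27 and 9.48 in B. C lay nearer to A, with a median difference of -0.42 from A and -0.74 from B, and its 3 mice also lay below the 8.66 to 9.92 of the high altitude mice.

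The complement component C1q, which macrophages make, showed this in each of its chains. C1qa read 9.43, 9.24 and 9.24 in C, 10.11, 9.79 and 9.83 in A, and 10.09, 9.97 and 10.32 in B, a log2 difference of -0.72 ± 0.18 (SE, adjusted p = 0.486). C1qb and C1qc gave -0.71 and -0.69, and 2 further C1qb probe sets gave -0.62 and -0.68. Vsig4, a complement receptor of Kupffer cells, lay at 9.79 to 10.01 in C and 10.23 to 10.68 in A and B (-0.58 ± 0.16, SE, adjusted p = 0.618). Clec4f, a lectin receptor found on mouse Kupffer cells, lay at 9.63 to 10.02 in C and 10.03 to 10.76 in A and B (-0.56 ± 0.18, SE, adjusted p = 0.70).

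Other macrophage markers overlapped between the groups. The scavenger receptor Cd163 read 7.2, 8.12 and 7.33 in C and 7.22 to 9.25 in A and B. Timd4, the receptor for phosphatidylserine on resident macrophages, read 6.35, 5.33 and 5.98 in C and 6.09 to 7.91 in A and B. Marco, another scavenger receptor, lay at 7.22 to 7.73 in C, 6.70 to 7.11 in A and 7.76 to 9.94 in B, so that C lay between them. Mpeg1, a pore-forming protein of phagocytes, and the macrophage gene Cd68 gave -0.29 and -0.36.

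The macrophage median kept its sign in each alternative run. Leaving out each mouse in turn moved it between -0.64 and -0.47, and the count of lower members between 7, without C mouse 2, and 11. Without A mouse 1 and B mouse 2 together, the median was -0.51, 9 of 16 were lower at an unadjusted p under 0.05, and 6 lay below all remaining mice of A and B. Hepatocyte markers, the tissue's own, averaged 13.50 ± 0.11 in C (SD, n = 3) and 13.49 ± 0.17 in A and B (SD, n = 6), and the RNA integrity values given above overlapped. Against A alone 6 of the 16 markers were lower at an unadjusted p under 0.05, and against B alone 14. The part of cell composition in these values was not tested.

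**Figure D5:**
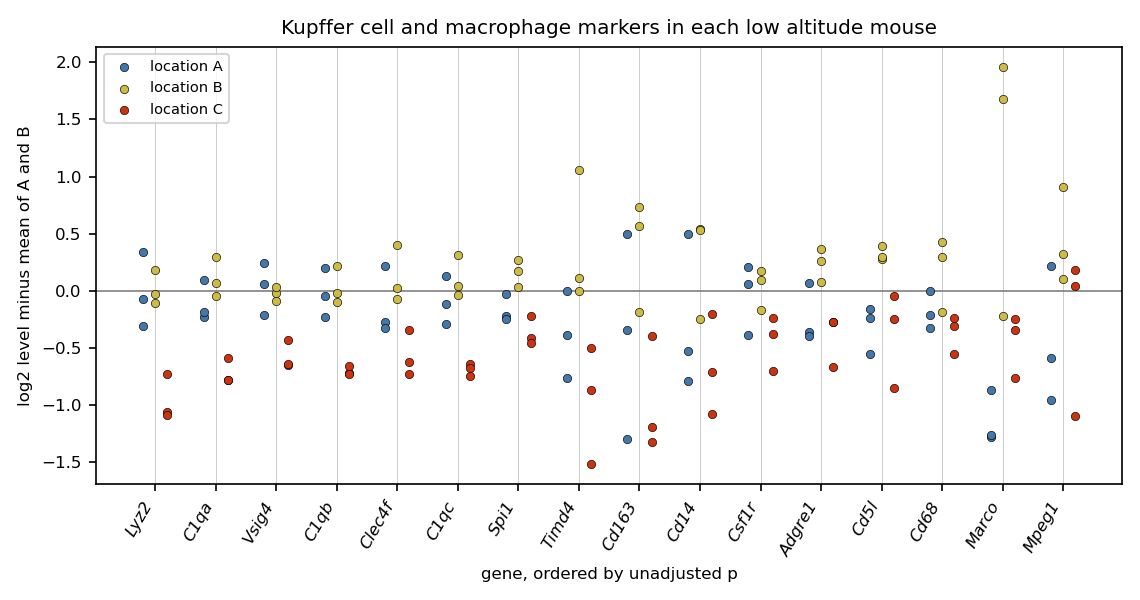
Log2 level of 16 Kupffer cell and macrophage markers in each low altitude mouse, minus the mean of the 6 mice of A and B for that gene; genes are ordered by unadjusted p. The 3 mice of C (red) lie below all others for Lyz2, C1qa, Vsig4, C1qb, Clec4f and C1qc, and between A and B for Marco.

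Endothelial markers had small differences of the same sign. Of 14 genes 13 were negative, with a median of -0.36. At an unadjusted p under 0.05, 1 was lower (7.14%, against 3.07% of all genes), and 3 lay below all of A and B (21.4%, against 1.59%). The list averaged 7.58 ± 0.14 in C, 7.96 ± 0.06 in A and 7.85 ± 0.05 in B (SD, n = 3 each). Clec4g, a lectin of sinusoidal endothelium, lay at 10.08 to 10.34 in C and 10.41 to 10.80 in A and B (-0.40 ± 0.17, SE, adjusted p = 0.839), and its other, dim probe set gave 0.04. Pecam1 and Cdh5, junction proteins of all endothelium, gave -0.46 and -0.56, with no overlap. Against A alone 4 of 14 were lower, with a median of -0.37, and against B alone 0, with a median of -0.27. For A and B together the median was -0.33 without A mouse 1 and B mouse 2. The count was 0 without A mouse 2 or C mouse 3 and 8 in a fit to the 9 low altitude arrays alone.

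Of the neutrophil markers, 3 of 10 were lower at an unadjusted p under 0.05 (30%, against 3.07% of all genes). The count was 1 against A alone and 3 against B alone. The list averaged 6.20 ± 0.13 in C, 6.38 ± 0.02 in A and 6.78 ± 0.16 in B (SD, n = 3 each). The groups did not overlap, but the highest mouse of C, at 6.34, lay just below the lowest of A, at 6.36. The median difference of the list was -0.14 over the 10 genes and -0.85 over the 5 that lay above the median level of all probe sets. Over the 10 genes it was -0.09 against A and -0.19 against B. S100a9, a calcium-binding alarmin, read 6.09, 6.22 and 6.31 in C, 6.84, 6.65 and 7.62 in A, and 7.95, 6.75 and 8.65 in B, a log2 difference of -1.20 ± 0.38 (SE, adjusted p = 0.688). Its partner S100a8 gave -1.11 with overlap, and Csf3r, the receptor for granulocyte colony-stimulating factor, -0.27. The count of lower neutrophil genes was 1 without C mouse 2, and 4 without A mouse 1 and B mouse 2 together. The granule genes Mpo, Elane, Ltf, Camp and Ngp were dim, with differences of -0.20 to 0.04. T and NK cell markers had a median of -0.16 and B and plasma cell markers of -0.06, with 0 of 15 and 1 of 10 lower. Stellate, cholangiocyte, erythroid, pancreas, muscle and adipocyte markers had medians between -0.04 and 0.09.

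The class I loading list had a median of -0.53 over 12 genes. It held class I chains, genes that load peptides onto them, and the immunoproteasome subunits that cut those peptides. Of the 12, 11 were negative, and 6 were lower at an unadjusted p under 0.05 (50%, against 3.07% of all genes). C lay below all of A and B for 5 (41.7%, against 1.59%). The heavy chain H2-K1 was among both the 6 and the 5. Its probe sets and those of H2-D1 are uncertain, as described below, and no list value is given without them. Against A alone 2 of 12 were lower, with a median of -0.36, and against B alone 7, with a median of -0.67. The list averaged 9.03 ± 0.16 in C, 9.56 ± 0.03 in A and 9.90 ± 0.16 in B (SD, n = 3 each). Psmb8, an immunoproteasome subunit, read 8.32, 7.88 and 8.50 in C, 8.99, 9.01 and 9.14 in A, and 9.33, 9.94 and 9.23 in B. The log2 difference was -1.04 ± 0.35 (SE, adjusted p = 0.747), and its dim second probe set gave -0.25.

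Tapbp, the chaperone tapasin, gave -0.72 ± 0.23 (SE, adjusted p = 0.703) and -0.85 on its second probe set, and Tap2, a subunit of the peptide transporter, -0.58. B2m, the light chain of class I molecules, lay at 13.97 to 14.02 in C and 14.11 to 14.17 in A and B, a small difference of -0.15 without overlap. Tap1 and Psmb10 gave -0.30 and -0.38 with overlap, and Erap1, the peptide-trimming protease, 0.15.

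The class I heavy chains varied by probe set within C. The named H2-K1 probe set read 11.29, 11.21 and 8.57 in C, 12.14, 12.13 and 12.22 in A, and 13.26, 12.74 and 12.52 in B (-2.14 ± 0.45, SE, adjusted p = 0.237). A second read 7.74, 11.38 and 12.15 in C and 12.15 to 12.60 in A and B, so the low mouse was C mouse 1 rather than 3. A further one read 6.16, 10.86 and 11.31 in C, 7.13 to 7.34 in A and 11.46 to 12.16 in B. The list's H2-D1 probe set read 8.29, 11.78 and 12.47 in C and 12.29 to 13.08 in A and B, whereas another read 11.5, 11.63 and 4.91 in C and 4.75 to 5.75 in A and B. C mouse 1 was thus the lowest of C on some heavy chain probe sets and C mouse 3 on others. Heavy chains are highly polymorphic and near-identical between genes, so these values are uncertain as levels of 1 gene. The count of lower class I loading genes was 2 without C mouse 1, 3 without C mouse 2, 4 without A mouse 1, A mouse 2 or A mouse 3, and 3 without A mouse 1 and B mouse 2 together, with medians of -0.66 to -0.45.

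Class II presentation genes had the lowest median of the 44 lists, -0.59 over 11 genes. At an unadjusted p under 0.05, 4 members were lower (36.4%, against 3.07% of all genes), although 0 lay below all of A and B. Cd74, the invariant chain, read 8.65, 8.43 and 9.09 in C, 9.93, 9.10 and 9.88 in A, and 8.90, 10.85 and 9.93 in B (-1.04 ± 0.48, SE, adjusted p = 0.861). The chains H2-Ab1 and H2-Eb1 gave -1.09 and -1.01, and Ctss, the protease that trims the invariant chain, -0.60. H2-Ea gave 0.07, at 8.4 to 9.14 in C, 9.07 to 9.32 in A and 7.94 to 8.28 in B. This list rested on few mice: 0 members were lower without C mouse 2 and 1 without A mouse 1, A mouse 3, B mouse 2, B mouse 3 or C mouse 1. Without A mouse 1 and B mouse 2 together, 1 was lower and the median was -0.35. Against A alone 1 of 11 was lower, with a median of -0.40, and against B alone 1, with a median of -0.79.

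Interferon response genes had a median of -0.30 over 27 genes, made up of -0.09 against A and -0.67 against B. At an unadjusted p under 0.05, 6 were lower (22.2%, against 3.07% of all genes) and 1 higher (3.7%, against 2.59%). Irf7, the transcription factor that amplifies the interferon response, read 7.0, 7.34 and 7.15 in C, 7.56, 8.43 and 7.66 in A, and 8.73, 8.71 and 8.55 in B, with no overlap (-1.11 ± 0.44, SE, adjusted p = 0.829). Oas1a, an RNA-sensing enzyme, gave -1.09, Ifit3 -0.96, Gbp3, a guanylate-binding protein, -1.02, and Mx1, near the array floor, -0.68.

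Mx2, an antiviral dynamin-like protein, went the other way. It read 9.35, 9.42 and 8.91 in C and 9.59 and 9.27 in A mice 2 and 3, against 6.25 in A mouse 1 and 6.69 to 7.32 in B (1.58 ± 0.72, SE, adjusted p = 0.861). C overlapped A. The count of lower interferon genes was 2 without C mouse 1, 3 without C mouse 2, and 4 without A mouse 2 or C mouse 3, as well as without A mouse 1 and B mouse 2 together.

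Acute phase proteins, which hepatocytes secrete during inflammation, had a median of -0.30 over 23 genes. At an unadjusted p under 0.05, 5 were lower (21.7%, against 3.07% of all genes). The median was -0.16 against A alone, with 1 lower, and -0.37 against B alone, with 7 lower. Itih4, a heavy chain of the inter-alpha-trypsin inhibitor family, lay at 13.23 or less in C and at 13.31 to 13.86 in A and B (-0.48 ± 0.13, SE, adjusted p = 0.578). Saa3, a serum amyloid A protein, read 8.49, 9.0 and 9.88 in C and 8.82 to 9.77 in A, against 11.56 to 11.79 in B. C overlapped A and lay below B, with differences of -0.10 and -2.58. Orm2, an orosomucoid, showed the same arrangement, at 8.41, 6.15 and 9.16 in C, 7.64 to 9.87 in A and 9.47 to 13.46 in B. Lcn2, the iron-binding lipocalin counted here with neutrophil genes, gave 0.37 against A and -2.07 against B. The acute phase count was 3 without C mouse 1 and 6 without A mouse 1 and B mouse 2 together.

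Sex-biased lists followed the 2 mice that stood apart. Female-biased genes had a median of -0.51 in C against A and B, which was 0.15 without A mouse 1 and B mouse 2, and male-biased genes one of 0.34, which was -0.06 without them. Each list had 0 lower and 1 higher member at an unadjusted p under 0.05. Mup10, a major urinary protein, read 10.80, 8.51 and 9.71 in C, 4.35, 6.67 and 6.85 in A, and 9.43, 5.41 and 9.84 in B (2.58 ± 1.04, SE, adjusted p = 0.829). Cyp17a1, a steroid hydroxylase of the female-biased list, read 11.69, 10.92 and 11.88 in C and 11.21 to 12.05 in A, against 7.61 to 9.52 in B. Its difference was -0.01 from A and 2.67 from B.

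Drug conjugation enzymes were the list with the most higher members. At an unadjusted p under 0.05, 5 of 26 were higher (19.2%, against 2.59% of all genes) and 1 was lower (3.85%, against 3.07%). The median was 0.15, and 4 of 26 lay above all of A and B, against 1.11% of all genes. Against A alone 5 of 26 were higher, with a median of 0.13, and against B alone 2, with a median of 0.19. Gstm1, a glutathione transferase, read 12.95, 13.29 and 13.61 in C and 11.95 to 13.16 in A and B, an overlapping difference of 0.59 ± 0.21 (SE, adjusted p = 0.761). Its 3 other probe sets gave 0.67 to 0.85. The glucuronosyltransferases Ugt2b34, at 11.99 to 12.08 in C and 11.43 to 11.80 in A and B, and Ugt2b5, at 13.03 to 13.20 and 12.06 to 12.91, gave 0.39 and 0.44 without overlap.

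Gsta4 gave 1.05, with B mouse 2 at 10.43 above the 8.89, 9.68 and 9.84 of C and the other 5 mice of A and B at 7.16 to 8.69. Gsta2 read 7.71, 7.08 and 11.14 in C and 5.26 to 6.92 in A and B apart from 10.06 in B mouse 2. Gstz1, the transferase of tyrosine breakdown, gave -0.41. The count of higher conjugation genes was 1 without C mouse 3, 3 without A mouse 1, B mouse 1, B mouse 3 or C mouse 2, and 6 without A mouse 1 and B mouse 2 together.

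Cytochrome P450 genes of families 1 to 3 had a median of 0.06 over 30 genes. At an unadjusted p under 0.05, 2 were higher (6.67%, against 2.59% of all genes) and 1 lower (3.33%, against 3.07%). The count of higher genes was 1 to 3 as single mice were left out. Cyp2d10 lay at 13.05 to 13.31 in C and 12.62 to 13.10 in A and B (0.35 ± 0.11, SE, adjusted p = 0.667), Cyp3a11 gave 0.40 and Cyp2c68 -0.63. Among Nrf2 targets and antioxidant enzymes 2 of 21 were higher (9.52%) and 1 lower (4.76%). The epoxide hydrolase Ephx1, counted there, read 11.87, 11.76 and 12.78 in C and 10.73 to 12.06 in A and B (0.82 ± 0.29, SE, adjusted p = 0.777).

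Among energy, lipid and oxygen-related lists, glycolysis genes were negative for 10 of 13, with a median of -0.14. At an unadjusted p under 0.05, 2 were lower (15.4%, against 3.07% of all genes). Oxidative phosphorylation genes were positive for 27 of 34, with a median of 0.10. At an unadjusted p under 0.05, 1 member was higher (2.94%, against 2.59% of all genes), or 5 without A mouse 1 and B mouse 2. Of 26 hypoxia-inducible factor targets and oxygen sensing genes, 1 was higher (3.85%) and 2 lower (7.69%), with a median of 0.05. The 2 lower genes, Hk2 and Ldha, are on both lists and are also the 2 lower glycolysis genes. Hk2, a hexokinase, gave -0.17 against A and -0.62 against B. Pfkfb3, a glycolytic regulator, read 6.11, 7.72 and 6.92 in C and 5.23 to 6.70 in A and B. This probe set gave a log2 difference of 0.99 and the other Pfkfb3 probe set 0.12. Ldha, lactate dehydrogenase, read 12.72, 13.17 and 11.91 in C and 12.82 to 13.26 in A and B. Fatty acid oxidation genes had a median of -0.10 and fatty acid synthesis genes of -0.13, each with 0 members at an unadjusted p under 0.05.

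Cholesterol synthesis genes were negative for 17 of 20 but varied most within C. Their mean level was 10.99 in C mouse 1, 9.26 in C mouse 2 and 8.76 in C mouse 3, against 8.87 to 10.57 in A and B, so that the 3 mice of C spanned the whole range of the other 6. No member was lower at an unadjusted p under 0.05, but 6 were without C mouse 1. The median of -0.28 became -0.95 without C mouse 1 and 0.18 without C mouse 3. Fasting and glucocorticoid response genes moved in the same way with single mice, from a median of 0.03 to -0.32 without C mouse 2 and 0.33 without C mouse 1.

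Single members of other lists are given as values. Ctsc, the lysosomal protease cathepsin C, read 8.84, 9.59 and 9.87 in C and 9.66 to 10.82 in A and B (-1.0 ± 0.25, SE, adjusted p = 0.434). Lgr5, a Wnt-pathway receptor of hepatocytes near the central vein, lay at 6.31 to 7.03 in C and 5.79 to 6.25 in A and B (0.54 ± 0.18, SE, adjusted p = 0.747). A second, dimmer Lgr5 probe set gave 0.03. Ern1, a sensor of unfolded proteins, lay at 9.78 to 10.30 in C and 9.34 to 9.73 in A and B, a difference of 0.42 that its other 4 probe sets, at -0.08 to 0.15, did not share. Rps6, a ribosomal protein gene, read 6.35 to 6.49 in C, 9.87, 9.52 and 6.83 in A, and 6.69 to 6.74 in B. The high Rps6 values were those of A mice 1 and 2, and without A mouse 3 the difference of -1.29 became -1.77 and passed (adjusted p = 4.95e-05). Hspa1a, an inducible heat shock protein, read 6.25 in C mouse 2 and 3.31 to 4.31 in the other 8 mice.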

How the data were processed

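Liver RNA of 18 wild male mice was hybridised to Affymetrix mouse arrays, 1 per mouse. The deposited log2 values were made by the authors with RMA in affy, per the submitters' processing notes; no versions are given there. RMA compresses weak signals. Of 45101 probe sets, 34945 carried 1 gene symbol in GEO's platform annotation, 932 several, 9160 none here, and 64 were controls; 34741 of the Entrez numbers matched the RefSeq table. Detection calls, scan dates and sequences were not used here.

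With limma 3.58.1 in R 4.3.3, 6 location means were fitted over 18 arrays (eBayes with trend, two-sided, Benjamini-Hochberg over all single-gene probe sets at 0.05); the main contrast was C minus the mean of A and B. The procedure was tested on simulated data. Lists used each gene's probe set with the highest mean. Named were called genes, and, since none was called in the main contrast, the 15 genes per direction with the smallest p among those whose higher group mean passed the median level, plus the 4 smallest p per list; other list members were chosen after their values were seen. Members and lists were chosen with earlier results of these data known. Alternatives covered scaling, filters, moderation, weights, mouse number and left-out mice. Same-numbered mice of different locations correlated at -0.32 to 0.206 in their deviations, so numbers do not pair them. Python 3.11.15, pandas 2.3.3, scipy 1.17.1 and matplotlib 3.10.9 were used.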

Additional observations from a re-analysis of the deposited data

Results flagged for a closer look

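Among 74 sets of 6 values for A and B (30 named genes and 44 list means), 5 held a mouse far from the other 5, and chance flags about 1 in 20 groups. The Lipa probe set read 6.19 in B mouse 1, against 9.27 to 10.85 in the other mice of A and B and 5.84 to 6.35 in C. The mean level of hepatocyte markers was 13.17 in B mouse 2, against 13.48 to 13.65 in the other 5 and 13.37 to 13.58 in C. The mean level of stellate cell and matrix markers was 7.99 in B mouse 2, against 7.47 to 7.64 in the other 5 and 7.47 to 7.69 in C. The mean level of fatty acid oxidation genes and PPAR alpha targets was 9.86 in B mouse 1, against 10.58 to 10.92 in the other 5 and 10.26 to 11.07 in C. Unfolded protein response genes averaged 10.37 in B mouse 3, against 9.31 to 9.70 in the other 5 and 9.55 to 9.72 in C.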

How the results depend on the processing

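The count of probe sets that differed between C and the mean of A and B was 0 in the reported fit. It stayed 0 with A and B as 1 group, arrays centred on medians, bright probe sets only, 1 probe set per gene, no trend, robust moderation, the Actb covariate, and both other thresholds. It was 2 with only the 9 low altitude arrays, 17 against A alone, 2 against B alone, 1 after repeated quantile normalization, 1 with array weights, and 11 without A mouse 1 and B mouse 2. Leaving out each mouse gave 0 to 6, against A alone 7 to 23, and against B alone 0 to 9. With mouse number as a replicate block, 3 passed (Lipo3, C030034I22Rik and Abhd18). Of 2185 values for 96 genes under alternatives, 7 changed sign: Pgap6 0.03 and Igfals 0.09 against B alone, Xaf1 0.30, Lcn2 0.37, Cyp17a1 -0.01 and Alad 0.04 against A alone, and Cyp3a16 0.15 without A mouse 1 and B mouse 2. Of 924 list medians, 3 moved by more than the spread between mice. The cause was not tested. The number of mice limits the precision, and dim probe sets understate differences.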
